A study of Mus musculus with 8 samples.

Results

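Connexins are the membrane proteins from which gap junctions are built, and 7 of their genes, Gja1, Gja4, Gja5, Gjb2, Gjb6, Gjc1 and Gjc3, are described here in single cells of the mouse brain. They were taken by symbol from the 31053 genes of the count tables, and all 7 are present there. The samples were dissociated cells of brain cortex, labelled Brain cortical plate, from mice of 8 weeks perfused with PBS. One experiment compared Lama4-/- mice, which lack the laminin alpha4 chain in every cell, with WT controls. The other compared Tek-Cre:Lama5-/- mice, in which the laminin alpha5 gene is deleted by a Cre driven from the Tek promoter, with WT controls of their own. Tek-Cre is active in endothelium and also in blood-forming lineages, so the second deletion is not confined to vessels. Each group is a pool of 3 brains, and each of the 4 groups has 2 samples, so the samples of a group share 1 pool. The SDs, SEs and p-values below therefore measure the spread between libraries, which may be technical, and not that between mice, and n counts libraries. SDs over the 4 WT libraries also hold the difference between the 2 experiments and their pools. The 2 Lama4-/- samples hold the same matrix and were counted as 1 library, which leaves 7 libraries and allows no test for that knockout.

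Each connexin protein spans the membrane, and rings of them in neighbouring cells dock to form channels that pass ions and small metabolites. In vessels Gja4 (Cx37) and Gja5 (Cx40) are known as the connexins of arterial endothelium, Gjc1 (Cx45) is known from mural cells, and such junctions carry dilating and constricting signals along the vessel wall. Gja1 (Cx43) and Gjb6 (Cx30) couple astrocytes, Gjb2 (Cx26) is known from the meninges, and Gjc3 (Cx29) is a connexin of myelinating cells. Laminins are the basement membrane proteins on which endothelial and mural cells rest.

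The 7 genes lie on 6 chromosomes (GRCm38, GENCODE M21, 1-based). Gja1 is at chr10:56377330-56402513 (+), Gja4 at chr4:127311421-127314039 (-) and Gja5 at chr3:96904693-97077416 (+). Gjb2 at chr14:57098600-57104702 (-) and Gjb6 at chr14:57123303-57133611 (-) are neighbours, 18600 bases apart with 1 annotated gene between them. Gjc1 is at chr11:102799579-102819700 (-) and Gjc3 at chr5:137953461-137963098 (-). The span of Gja5 holds genes on the opposite strand, among them Gpr89 and 2 antisense genes; whether the counting used strand is not given in the sources used here. RefSeq promoters of GRCm38.p6 were matched for 6 of the 7 members. The 250 bases before the start are shown for the arterial pair and for the astrocyte pair, because the members of each pair were detected in the same zones or class. Capitals mark GC boxes (GGGCGG) and CACCC motifs (CCACCC), on either strand.
Gja4, chr4:127314040-127314289 (-): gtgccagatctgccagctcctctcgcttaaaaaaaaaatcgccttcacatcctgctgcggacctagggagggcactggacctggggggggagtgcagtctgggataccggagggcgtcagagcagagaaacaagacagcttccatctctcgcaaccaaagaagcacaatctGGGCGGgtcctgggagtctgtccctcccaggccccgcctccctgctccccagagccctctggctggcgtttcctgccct
Gja5, chr3:97032152-97032401 (+): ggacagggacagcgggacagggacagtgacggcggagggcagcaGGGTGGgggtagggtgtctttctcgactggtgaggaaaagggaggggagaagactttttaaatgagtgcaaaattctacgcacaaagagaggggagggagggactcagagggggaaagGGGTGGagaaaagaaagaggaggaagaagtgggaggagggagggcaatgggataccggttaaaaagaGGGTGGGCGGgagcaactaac
Gja1, chr10:56377050-56377299 (+): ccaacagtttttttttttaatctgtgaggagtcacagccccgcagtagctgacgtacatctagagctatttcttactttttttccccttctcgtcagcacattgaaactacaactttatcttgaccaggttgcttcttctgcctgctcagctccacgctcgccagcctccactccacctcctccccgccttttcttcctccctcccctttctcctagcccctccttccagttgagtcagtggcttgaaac
Gjb6, chr14:57133612-57133861 (-): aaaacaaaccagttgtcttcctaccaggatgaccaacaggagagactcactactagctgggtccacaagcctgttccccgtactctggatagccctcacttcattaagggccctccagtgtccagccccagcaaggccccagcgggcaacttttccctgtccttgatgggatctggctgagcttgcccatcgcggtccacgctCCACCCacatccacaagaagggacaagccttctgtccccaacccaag
None of the 4 windows overlaps an annotated exon. The arterial pair shares a GC box, at 79 bases before the start in Gja4 and at 17 in Gja5, a motif held by 32.7% of the 32851 mouse promoters searched over the same length. The Gja5 window also holds 3 CACCC motifs, of which 1 shares 2 bases with its GC box, and the Gjb6 window holds 1, against 28.1% of promoters with at least 1. No motif of the search was found in the Gja1 window, and none of the 4 windows holds the other letters searched, namely TATAAA (12.4% of promoters), TGGGAA, the core bound by Rbpj (21.6%), ACAATG, a Sox motif (10.7%), and CAGCTG, an E-box (4271 of 32851 promoters).

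The libraries held 35479306 to 48314458 UMIs (unique molecular identifiers, counts of captured transcript molecules) over 6295 to 9556 cell barcodes, and pairs of libraries shared 6 to 27 barcodes. After filters, 47239 cells fell into 33 clusters, of which 30 were named from marker genes as 14 classes, with connexin genes left out of the clustering. The suffix -like marks names given in this way. Ependymal-like and neuroblast-like cells were among them, which lie outside the cortical plate named by the label. Endothelial-like cells were the largest class at 26339 cells, and were divided by zone markers into large artery-like (217 cells), small artery-like (5130), capillary-like (6851) and vein-like (4116) cells, with 10025 cells between zones. Large artery-like cells were few, 24 to 39 per library, so their values are imprecise. Each targeted gene was lower in endothelial-like cells of its knockout, where Lama4 was nearly absent but Lama5 remained at 0.545 times its WT level. In endothelial-like cells Lama4 was at 0.0603 CPM in the Lama4-/- library against 44.2 and 45.8 CPM in its WT libraries, and Lama5 was at 22.2 and 24.3 CPM in the Tek-Cre:Lama5-/- libraries against 42.5 and 42.6 CPM. CPM here are UMIs of a gene per 1000000 UMIs of the same class in the same library, and levels of different genes are not compared, because the values are not per length.

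Each of the 7 genes had 1 leading class, and this class was the same under every alternative of clustering, filtering and zone definition that was run. The levels below are means ± SD over the 4 WT libraries, which come from both experiments, and no class difference was tested because classes are sets of clusters. Gja1 and Gjb6 were highest in astrocyte-like cells, Gja4 in smooth muscle-like cells, Gja5 in large artery-like endothelium, Gjb2 in fibroblast-like cells, Gjc1 in pericyte-like cells and Gjc3 in oligodendrocyte-like cells.

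**Figure D1:**
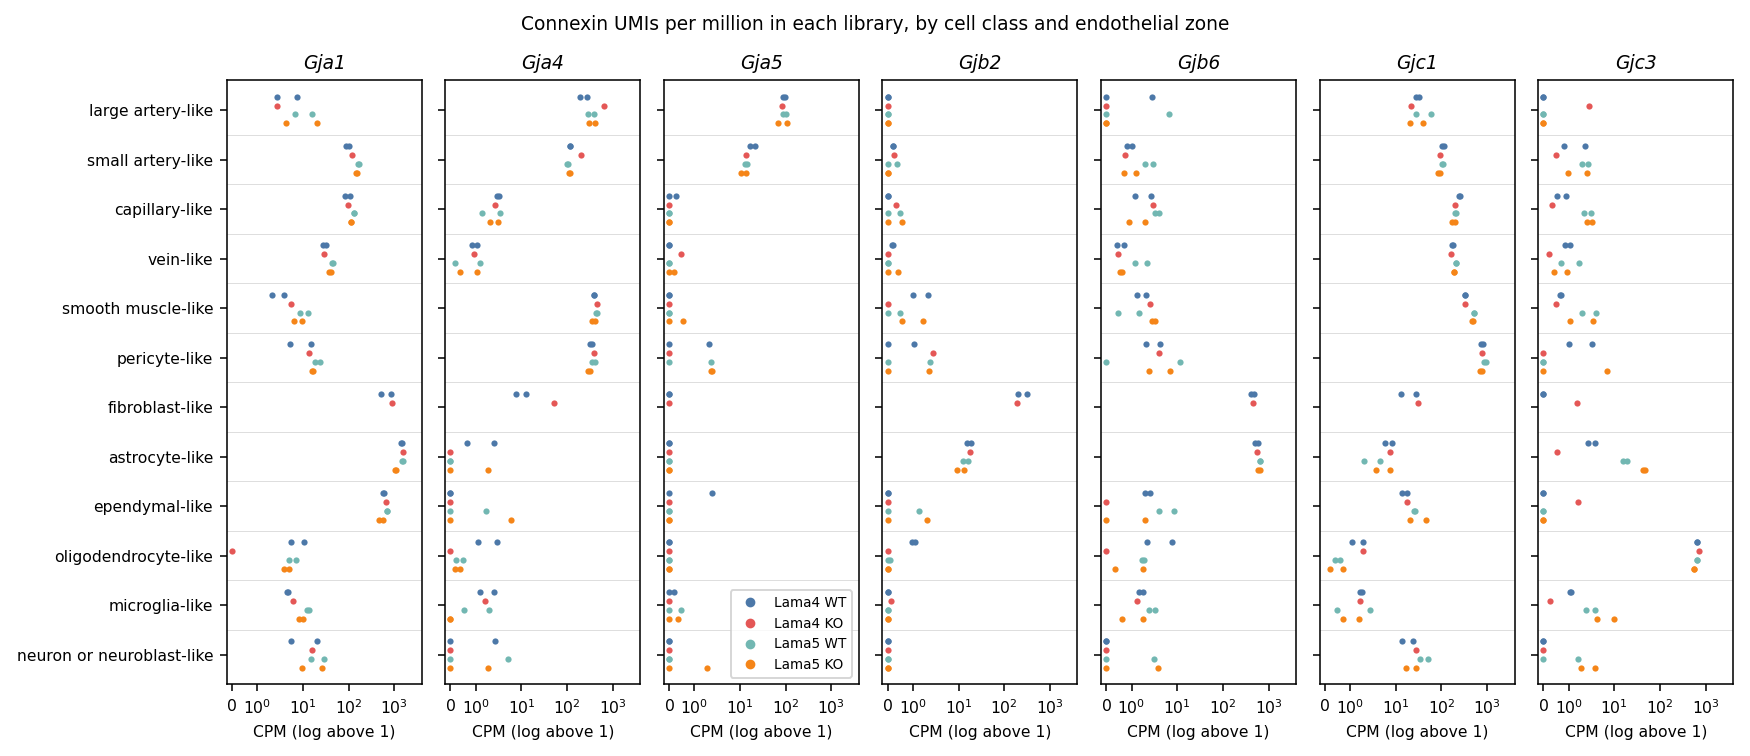
Level of each connexin gene (CPM, on an axis that is logarithmic above 1) in the main cell classes and endothelial zones, with 1 point per library coloured by group. By WT mean the leading class stands apart for Gjc3, at 649 CPM in oligodendrocyte-like cells and 10.1 CPM or lower in each other class. It is less set apart for Gja4, at 413 CPM in smooth muscle-like and 362 CPM in pericyte-like cells.

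Gja4 was a gene of the arterial endothelium and of both mural classes. In large artery-like cells it stood at 188 and 274 CPM in the Lama4 WT libraries and at 394 and 284 CPM in the Lama5 WT libraries (mean 285 ± 84.6, n = 4). In small artery-like cells it stood at 118 and 117 CPM and at 99.0 and 105 CPM (mean 110 ± 9.55). Capillary-like cells held 1.40 to 3.33 CPM over the 7 libraries. The 3 zones did not overlap in any library: the large artery-like level was 1.58 to 3.98 times the small artery-like one (median 2.71), and the small artery-like level was 31.5 to 77.0 times the capillary-like one. Under other zone definitions the WT mean of small artery-like cells was 54.7 to 79.9 CPM and that of large artery-like cells was as low as 158 CPM, so the arterial levels depend on where the zones are divided.

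Gja5 followed a narrower arterial pattern. The 4 WT libraries gave 86.5, 98.8, 99.5 and 86.0 CPM in large artery-like cells (mean 92.7 ± 7.49) from only 13 to 36 counts each. In small artery-like cells the values were 16.7, 21.7, 14.1 and 12.9 CPM (mean 16.3 ± 3.90). The large artery-like level was the higher in 7 of 7 libraries, by 4.56 to 8.02 times. Capillary-like cells held 1 count of Gja5 over all 7 libraries. With cells assigned to a zone by their highest marker score, the large artery-like mean was 35.2 CPM and the small artery-like mean 4.94 CPM, so the order stayed while both levels fell by more than 1.5 times.

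**Figure D2:**
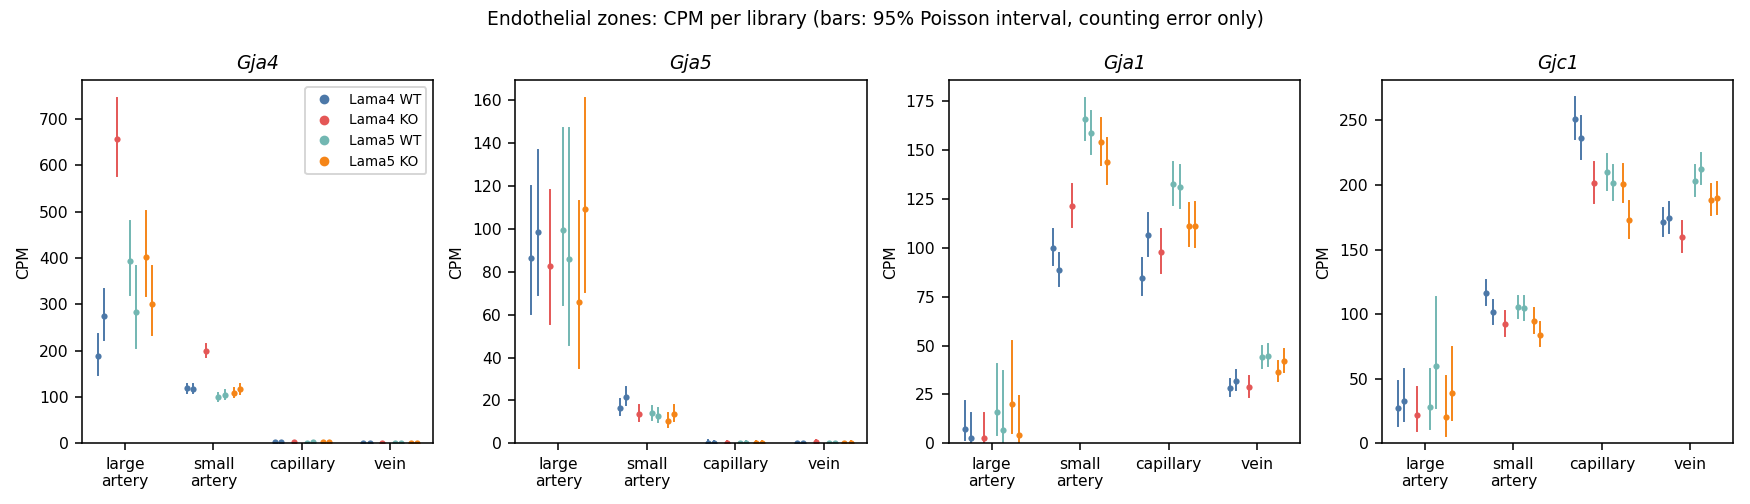
Levels of the endothelial connexins (CPM) along the zones from large artery-like to vein-like cells, with 1 point per library coloured by group and bars for 95% Poisson intervals (counting error only). Gja4 and Gja5 fall from artery to capillary in all 7 libraries, while Gjc1 is lower in the 2 arterial zones than in capillary-like and vein-like cells.

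Gja1 was also found in endothelium but with another pattern. Small artery-like cells held 100 and 88.7 CPM in the Lama4 WT libraries and 166 and 159 CPM in the Lama5 WT libraries, and capillary-like cells held 84.8 and 106 CPM and 133 and 131 CPM. The small artery-like level was the higher in 6 of 7 libraries, with a ratio of 0.834 to 1.38 (median 1.24), and the ranges of the 2 zones overlapped. Vein-like cells were lower, at 28.2 to 44.9 CPM over the 7 libraries, and the capillary-like level was 2.65 to 3.42 times theirs. In large artery-like cells Gja1 was at 8.17 ± 5.55 CPM, but other zone definitions gave 61.3 to 95.5 CPM there, so that low value rests on how these 217 cells were chosen. Astrocyte markers were detected in endothelial-like cells, and their part in this level was not tested: per 1000 astrocyte marker counts there were 1189 and 1748 counts of Gja1 in endothelial-like cells of the Lama4 and Lama5 experiments, against 76.7 and 98.8 in astrocyte-like cells, and 17.5 and 53.0 in microglia-like cells.

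Gjc1 was found throughout the endothelium and was lowest in arteries. Capillary-like cells held 225 ± 23.2 CPM and vein-like cells 190 ± 20.6 CPM (n = 4 WT libraries), and these neighbours overlapped, with the capillary-like level higher in 5 of 7 libraries. Small artery-like cells held 107 ± 6.61 CPM, 0.429 to 0.519 times the capillary-like level, with no overlap in any library. Large artery-like cells held 36.9 ± 15.3 CPM from 4 to 12 counts per library (56.5 to 91.9 CPM under other zone definitions). Pericyte markers summed to 13.2 to 27.3 CPM in endothelial-like cells, and their part in the level of Gjc1 was not tested: per 1000 pericyte marker counts there were 7460 and 11334 counts of Gjc1 in endothelial-like cells, against 27.9 and 39.0 in pericyte-like cells.

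Pericyte-like and smooth muscle-like cells shared Gjc1 and Gja4. Gjc1 was at 839 ± 70.8 CPM in pericyte-like cells and at 420 ± 102 CPM in smooth muscle-like cells, where the Lama4 WT libraries (333 and 331 CPM) lay below the Lama5 WT libraries (505 and 511 CPM). The smooth muscle-like level was 0.405 to 0.680 times the pericyte-like one in all 7 libraries. Gja4 was at 413 ± 32.4 CPM in smooth muscle-like and 362 ± 35.7 CPM in pericyte-like cells, with the smooth muscle-like level 1.05 to 1.30 times the pericyte-like one in 7 of 7 libraries, although the ranges of the 2 classes overlapped. At 2000 UMIs per cell, a UMI of both genes was found in 35.7% of 1044 pericyte-like cells and 26.8% of 2463 smooth muscle-like cells. In microglia-like cells, taken as a class that should lack both, it was found in 0 of 6380 cells, which allows a share of up to 0.0470%. Gja1 was low there, at a WT mean of 15.4 CPM in pericyte-like cells.

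Astrocyte-like cells carried Gja1 and Gjb6. Gja1 was at 1423 and 1452 CPM in the Lama4 WT libraries and 1577 and 1493 CPM in the Lama5 WT libraries (mean 1486 ± 67.2), 1.93 to 2.50 times the level in ependymal-like cells (640 ± 66.0 CPM). Gjb6 was at 502, 587, 648 and 647 CPM in the same 4 libraries (mean 596 ± 69.1). The astrocyte-like level of Gja1 lay above that of each other class in all 7 libraries. At 2000 UMIs per cell, 57.1% of 1174 astrocyte-like cells had both genes, 86.0% had Gja1 and 62.9% had Gjb6; this depth left out 42.3% of the class. In microglia-like cells, taken as a class that should lack both genes, the same depth gave 1.24% for Gja1 and 0.298% for Gjb6, with a median of 4631 UMIs per cell against 2755 in astrocyte-like cells.

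Fibroblast-like cells led the other classes in Gjb2. The 2 Lama4 WT libraries held enough of these cells for a level, and gave 200 and 313 CPM (129 and 123 counts), against 15.7 ± 2.43 CPM in astrocyte-like cells, the next class with 4 WT libraries. The same fibroblast-like cells held Gjb6 at 421 and 484 CPM and Gja1 at 519 and 864 CPM, so 3 connexins were found in 1 small class of 176 cells. Gjb6 was lower in fibroblast-like than in astrocyte-like cells in each of the 3 libraries of that experiment, at 421, 484 and 461 CPM against 502, 587 and 557 CPM (the last the knockout). Per 1000 astrocyte marker counts, fibroblast-like cells had 1130 and 494 counts of Gjb6 in the 2 experiments, against 28.2 and 45.9 in astrocyte-like cells. Among fibroblast-like cells at 2000 UMIs, 20.1% of 154 had a UMI of both Gjb2 and Gjb6, against 0 of 6380 microglia-like cells.

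Gjc3, a connexin of myelinating cells, stood at 654, 651, 653 and 636 CPM in oligodendrocyte-like cells of the 4 WT libraries (mean 649 ± 8.75). The spread between these libraries was the smallest, relative to the mean, of the 7 leading levels. The next class was astrocyte-like at 10.1 ± 8.17 CPM, and microglia-like cells held 2.10 ± 1.29 CPM. Gjb1 (Cx32), which is not among the 7, was at 214 ± 14.7 CPM in oligodendrocyte-like cells, where it forms channels with astrocyte connexins. Panx1, which forms membrane channels but no junctions, was at 20.6 ± 3.17 CPM in neuron or neuroblast-like cells.

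Genes whose pattern was most like each member were ranked by Pearson's r of log2 levels over 16 classes and zones among 12408 genes; this is a description, and the points share libraries. Gja5 was most like Ssu2 (r = 0.98), Apol9b (0.97) and Gkn3 (0.97). Gja4 was most like Gper1 (0.94), Lamc3 (0.91), a laminin gamma chain, and Col18a1 (0.87), another basement membrane gene. Gjc1 was most like Pdzd2 and Ackr3 (0.93 each) and Tbx3 (0.92). Gjb6 was most like Tnc and Myoc (0.97 each), Gjb2 like Wnt6 (0.98), and Gjc3 like 1700063D05Rik and Nkx6-2 (0.97 each) and its fellow connexin Gjb1 (0.96). Gja1, with its wide pattern, had the weakest match, Cdo1 at 0.80.

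Loss of Lama4 went with a higher Gja4 in the arterial endothelium. In small artery-like cells Gja4 was at 200 CPM in the Lama4-/- library against 118 and 117 CPM in its WT libraries, from 805 and 1132 counts. In large artery-like cells it was at 657 CPM against 188 and 274 CPM, from 238 and 176 counts. The knockout library lay above both WT libraries in each zone. The ratio of knockout to WT was 1.69 (95% interval 1.54 to 1.85) in small artery-like and 2.87 (2.35 to 3.51) in large artery-like cells, and 1.83 (1.69 to 1.98) in all endothelial-like cells. These intervals cover counting error only, and a single knockout library has no replicate check. Under a stricter cell filter and under zones set by marker score the large artery-like ratio was 2.04 and 2.01, and the small artery-like ratio 1.53 and 1.54.

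Outside the arterial zones the difference in Gja4 varied. Endothelial cells between zones held 10.2 CPM against 5.26 and 5.50 CPM, a ratio of 1.91 (1.27 to 2.85). Capillary-like cells held 2.59 CPM against 3.23 and 2.92 CPM, from 8 and 22 counts. Smooth muscle-like cells held 440 CPM against 392 and 380 CPM (ratio 1.14, 1.05 to 1.23), and pericyte-like cells 387 CPM against 359 and 323 CPM (1.14, 0.985 to 1.31). The 8 smooth muscle markers summed to 165 CPM in small artery-like cells of the knockout against 216 and 218 CPM in WT, and Gja4 per 1000 smooth muscle marker counts was 1209 against 543 and 544; their part in the result was not tested. The share of endothelial-like cells that were small artery-like was 19.1% against 18.9% and 19.9%, and the large artery-like share was 1.61% against 1.37% and 1.28%, above both WT libraries. The large artery markers were higher, and summed to 7428 CPM in small artery-like cells of the knockout against 5784 and 6342 CPM; their part in the result was not tested.

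In the zones defined above, Gja5, Gja1 and Gjc1 lay within 1.5-fold of WT in the Lama4-/- library wherever they had at least 30 counts. Gja5, the arterial partner of Gja4, was at 13.6 CPM in small artery-like cells against 16.7 and 21.7 CPM, a ratio of 0.712 (0.517 to 0.966) from 55 and 184 counts. It lay beyond 1.5-fold with zones set by marker score (0.474), at clustering resolution 2 (0.578) and without replicate 1 of the WT (0.630). In large artery-like cells Gja5 was at 82.8 CPM against 86.5 and 98.8 CPM (0.897, 0.565 to 1.39). Gja4 and Gja5 therefore lay on opposite sides of their WT libraries in the same cells. Gja1 was at 121 CPM in small artery-like cells against 100 and 88.7 CPM (1.28, 1.15 to 1.44), and at 97.9 CPM in capillary-like cells, between its 2 WT libraries. Gjc1 was at 202 CPM in capillary-like cells against 251 and 237 CPM (0.825, 0.752 to 0.905), below both WT libraries there and in small artery-like and vein-like cells. Of the 6 members with at least 30 counts in endothelial-like cells, 1 was higher by at least 1.5-fold, Gja4, where 1.61% of 12645 genes were, and 1 was lower, Gjc3 at 5 against 41 counts (ratio 0.281, 0.0867 to 0.711), where 1.48% were. Without either WT library its summed counts were below the minimum of 30, so the rule could not be applied to it. Oligodendrocyte markers summed to 1041 CPM in these knockout cells against 1043 and 1078 CPM, and their part was not tested. Below that minimum, Gjc3 was also lower in microglia-like cells, at 2 against 23 counts (0.245, 0.0280 to 0.992). Astrocyte-like cells held 1 against 10 counts of Gjc3, while in oligodendrocyte-like cells its ratio was 1.12. By the same rule Gja4 was the 1 member of 4 past the fold in small artery-like cells (2.29% of genes higher) and the 1 of 3 in large artery-like cells (9.01%).

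**Figure D3:**
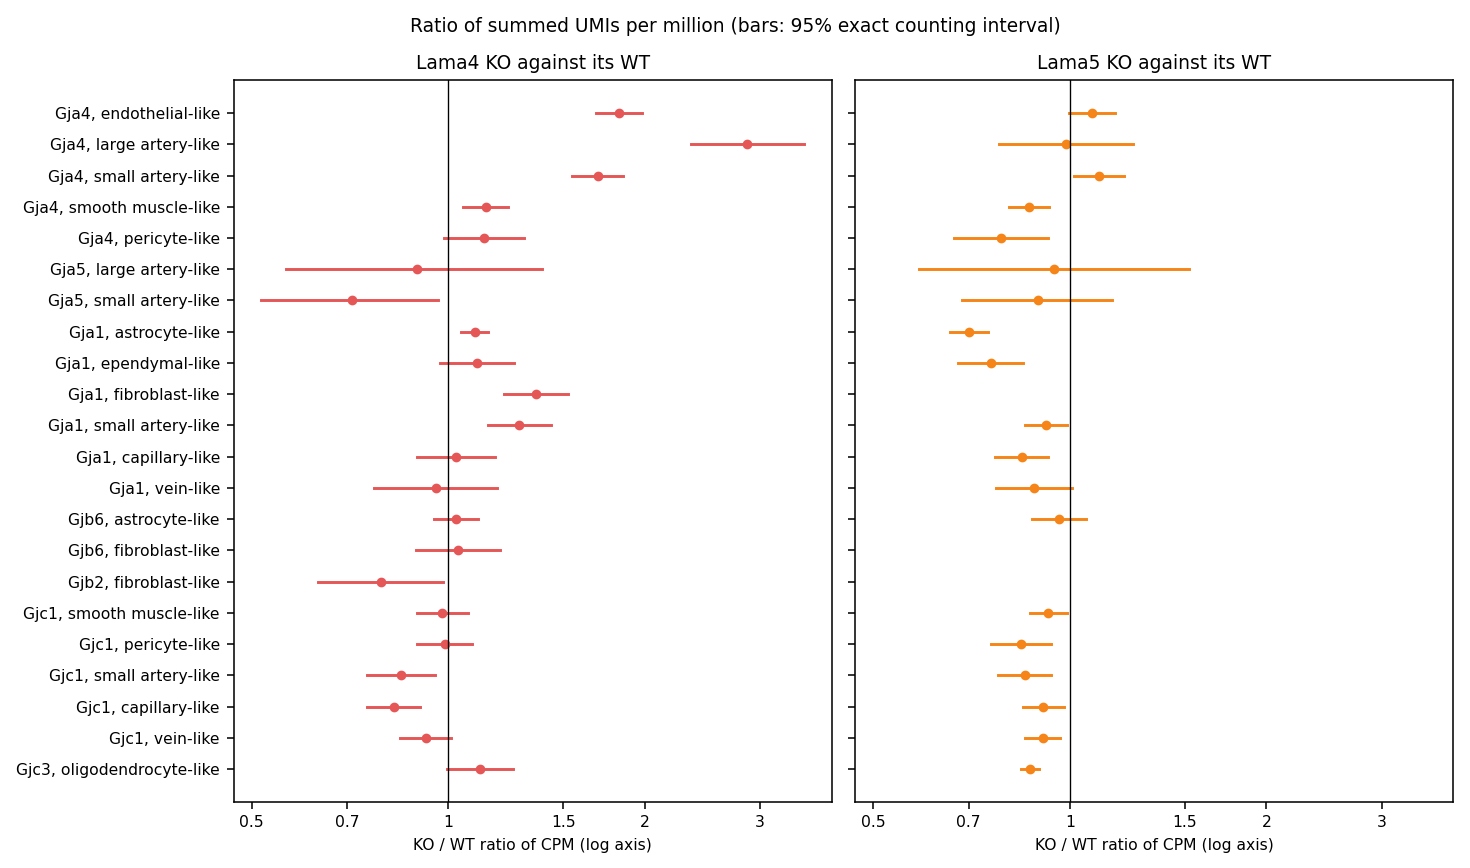
Ratio of knockout to WT CPM (log axis) for connexin genes in classes and zones, with bars for 95% intervals that cover counting error only, for Lama4-/- (left) and Tek-Cre:Lama5-/- (right). In large and small artery-like cells Gja4 lies at 2.87 and 1.69 for Lama4-/- and at 0.986 and 1.11 for Tek-Cre:Lama5-/-.

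Outside the endothelium, members with at least 30 counts lay within 1.5-fold of WT in the Lama4-/- library, with 1 exception, in the classes named next. These were astrocyte-like, smooth muscle-like, pericyte-like, oligodendrocyte-like, microglia-like and fibroblast-like cells. In perivascular macrophage-like cells, a further class, Gja1 was lower by more than 1.5-fold, from 7 against 28 counts (0.644, 0.237 to 1.51). Astrocyte-like Gja1 was at 1577 CPM against 1423 and 1452 CPM (1.10, 1.05 to 1.15) and Gjb6 at 557 CPM, between its WT libraries. Oligodendrocyte-like Gjc3 was at 730 CPM against 654 and 651 CPM (1.12, 0.994 to 1.26). Fibroblast-like Gja1 was at 884 CPM against 519 and 864 CPM and Gjb2 at 191 CPM against 200 and 313 CPM, each near 1 of its WT libraries. The exception was Gja4 in fibroblast-like cells, with 33 counts in the knockout and 10 in WT (5.25, 2.53 to 11.9), in a class where 13.5% of genes were higher by at least 1.5-fold; smooth muscle markers summed to 605 CPM in these knockout cells against 181 and 254 CPM, and their part was not tested. Among 12 partners of connexins, such as the scaffold Tjp1, 1 was lower by 1.5-fold in endothelial-like cells, Nov, a secreted protein that binds connexins, at 24.4 CPM against 47.6 and 46.6 CPM (0.517, 0.463 to 0.576), and none was higher (1.48% and 1.61% of all genes were lower and higher there). Among 13 regulators and arterial partners none passed the fold in endothelial-like cells. In large artery-like cells 1 of the 13 did, Dll4, a Notch ligand of arteries, at 235 CPM against 156 and 104 CPM (1.79, 1.32 to 2.41), in a zone where 9.01% of genes were higher by that fold.

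Deletion of Lama5 with Tek-Cre went with small changes of the endothelial connexins. Gja4 was at 109 and 117 CPM in small artery-like cells of the knockout against 99.0 and 105 CPM in WT, and the groups did not overlap. The change passed the test, at 0.23 on the log2 scale (SE 0.0711; edgeR quasi-likelihood test with Benjamini-Hochberg adjustment, adjusted p = 0.0217). It was the 1 call among 12 tests of members in 3 zones, where 7.46% of genes in small artery-like, 7.47% in capillary-like and 8.84% in vein-like cells were called. In all endothelial-like cells Gja4 was at 32.2 and 34.5 CPM against 32.0 and 29.5 CPM, a log2 change of 0.19 (SE 0.0616, edgeR adjusted p = 0.0263). Neither call was made by DESeq2 (adjusted p = 0.286 and 0.357), and both were lost without replicate 2 of the knockout and without the filter on low counts (0.0711 and 0.0517 by edgeR). The small artery-like call was also lost without replicate 1 of the WT (adjusted p = 0.285 by edgeR), under the stricter cell filter (0.140), at clustering resolution 2 (0.279) and with zones by marker score (0.361), and the endothelial-like call without replicate 2 of the WT (0.250). Large artery-like cells were too few to be tested, and their ratio was 0.986. Other zone definitions put more cells into that zone. At clustering resolution 2 Gja4 was called higher there, at 240 and 248 CPM against 204 and 193 CPM (log2 change 0.38, SE 0.108, edgeR adjusted p = 0.0352). Under the stricter cell filter it was called as well, at 265 and 266 CPM against 224 and 212 CPM (0.34, SE 0.0946, edgeR adjusted p = 0.0172), and with zones by marker score it was not (0.11, edgeR adjusted p = 0.666).

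Of 6 members tested in endothelial-like cells of this knockout, 2 were called, Gja4 and Gjb6, where 19.0% of 13192 genes were. Gjb6 fell by 0.86 on the log2 scale (SE 0.264, edgeR adjusted p = 0.0197), from 2.59 and 2.11 CPM to 1.16 and 1.30 CPM, or from 100 to 43 counts. This is an astrocyte gene, and the astrocyte markers in endothelial-like cells moved with it, from 141 and 146 CPM in WT to 101 and 119 CPM in the knockout; their part was not tested. The call was lost under DESeq2 (adjusted p = 0.307) and, in edgeR, without replicate 1 of the WT (0.201) or without replicate 1 (0.154) or 2 (0.0559) of the knockout. Gja1 was at 101 and 96.7 CPM against 115 and 108 CPM (log2 change -0.09, SE 0.0369, edgeR adjusted p = 0.0768) and Gjc1 at 160 and 152 CPM against 172 and 177 CPM (-0.08, SE 0.0305, edgeR adjusted p = 0.0621). Both lay below WT in each knockout library without passing the test. Gja5 had overlapping groups, 3.14 and 4.80 CPM against 4.75 and 3.69 CPM (log2 change -0.02, SE 0.189).

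Connexin partners and regulators were called in both directions in these cells, where 19.0% of all genes were called. The median log2 change was 0.01 over the partners and -0.03 over the regulators, against -0.0025 over all genes. Of 12 partners 4 rose, among them Cav1, the caveola protein (log2 change 0.11), and Cnst, which brings connexins to the membrane (0.25), and 3 fell, among them Nov (-0.36) and the tight junction protein Ocln (-0.08). Of 13 regulators 2 rose, Dll4 (0.18) and Klf4 (0.06), and 4 fell, Klf2, a factor induced by flow (-0.26), Sox18 (-0.22), Notch4 (-0.20) and Foxc1 (-0.09). In small artery-like cells, where 7.46% of genes were called, 1 partner rose, Tjp1 (0.17), and 1 fell, Nov (-0.47), while Dll4 rose (0.21) and Sox18 (-0.23) and Klf2 (-0.25) fell. Each of these changes passed the edgeR test at an adjusted p under 0.05.

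Outside the endothelium, 3 of 14 tests of members in other classes were called in the Tek-Cre:Lama5-/- comparison, 2 in astrocyte-like cells (16.4% of genes called) and 1 in oligodendrocyte-like cells (10.2%). None was called in microglia-like (13.5%), smooth muscle-like (5.82%), neuron or neuroblast-like (0.337%) or pericyte-like cells (0.289%). In microglia-like cells Gja1 was the only member tested. Gja1 in astrocyte-like cells was at 1048 and 1103 CPM in the knockout against 1577 and 1493 CPM in WT, with no overlap. Its log2 change was -0.57 (SE 0.113, edgeR adjusted p = 0.00130). Gjb6, the other astrocyte connexin, had overlapping groups at 665 and 582 CPM against 648 and 647 CPM (log2 change -0.11, SE 0.118, edgeR adjusted p = 0.578). The makeup of the class moved with the change in Gja1. The cluster led by Dclk1 and Gria2, in which Gja1 was at 564 and 574 CPM in WT, held 54.3% and 52.8% of astrocyte-like cells in WT and 78.6% and 71.1% in the knockout. The cluster led by Aldoc, with Gja1 at 2202 and 2212 CPM in WT, held 37.3% and 35.1% in WT and 18.5% and 22.8% in the knockout. Within these 2 clusters the ratio of knockout to WT was 0.942 (0.801 to 1.11) and 0.919 (0.847 to 0.996), and in the third, led by Fabp7 and Gfap, it was 0.625 (0.456 to 0.840) from 50 and 389 counts. With clusters at a finer resolution the log2 change was -0.22 and the call was lost (edgeR adjusted p = 0.250), and under the stricter cell filter the class was too small to be tested. Cells of the Dclk1-led cluster held fewer UMIs each than those of the Aldoc-led cluster. Over all kept cells the median was 3142 and 2902.5 UMIs in the knockout libraries against 3783 and 3556 in WT. The part of depth in the makeup of the class was not tested.

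**Figure D4:**
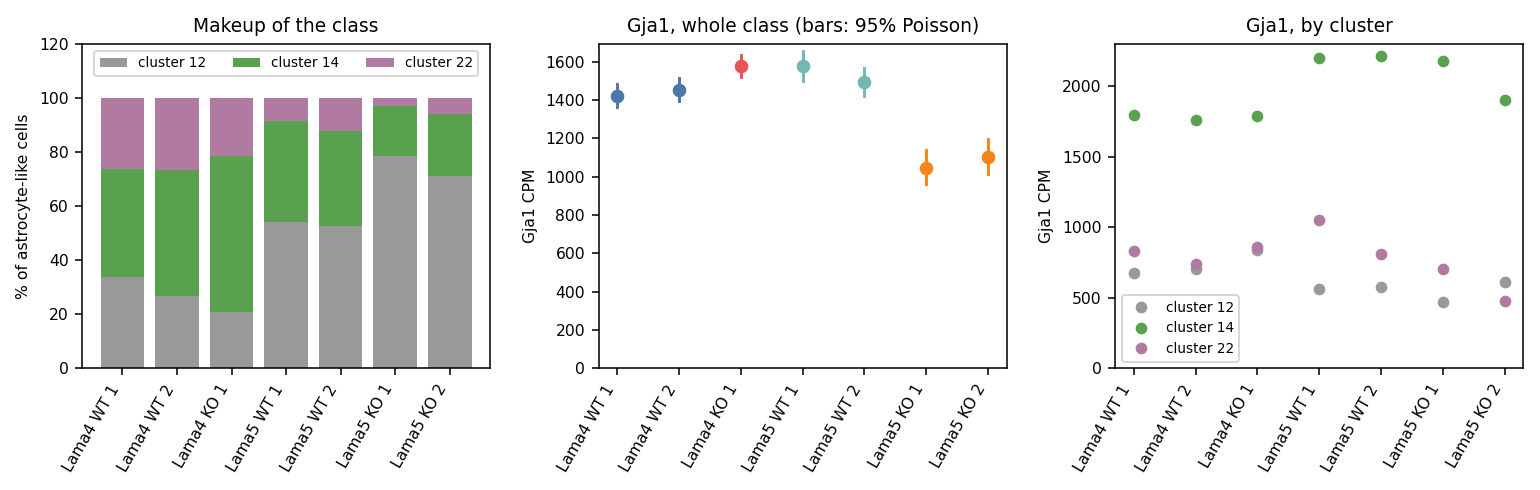
Share of astrocyte-like cells in each of their 3 clusters (percent, left), Gja1 in the whole class with 95% Poisson intervals (CPM, middle) and Gja1 in each cluster (CPM, right), per library. The Dclk1-led cluster (12), where Gja1 is low, takes 71.1% and 78.6% of the class in Tek-Cre:Lama5-/- libraries against 52.8% and 54.3% in their WT.

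Gjc3 was called in 2 classes of the same comparison, in opposite directions. In its own class, oligodendrocyte-like cells, it was at 568 and 555 CPM in the knockout against 653 and 636 CPM in WT, with no overlap. The log2 change was -0.14 (SE 0.0305, edgeR adjusted p = 0.00289), where 4.81% of genes were called lower, and the CPM ratio was 0.869 (0.842 to 0.897). The call held under every alternative that was run, with the largest adjusted p at 0.04999 under DESeq2. Gjb1 also fell in this class, from 201 and 206 CPM to 152 and 147 CPM (log2 change -0.38, SE 0.0451, edgeR adjusted p = 7.04e-07). Oligodendrocyte markers summed to 76938 and 76992 CPM in the knockout against 79756 to 80627 CPM in WT. Within the 2 large clusters of the class, Gjc3 was lower in each knockout library than in each WT library, with 577 and 568 CPM set beside 670 and 660 CPM in the first. In astrocyte-like cells Gjc3 was called higher, at 42.7 and 47.0 CPM against 15.3 and 18.8 CPM (log2 change 1.32, SE 0.321, edgeR adjusted p = 0.00718), from 48 and 36 counts; oligodendrocyte markers moved with it there, from 939 and 943 CPM in WT to 1460 and 2050 CPM in the knockout, and their part was not tested. DESeq2 did not make that call (adjusted p = 0.141). At clustering resolution 2 Gjc3 was too low in this class to be tested, and under the stricter cell filter the class was too small. Microglia-like cells, where Gjc3 was not tested, held 40 against 12 counts of it (ratio 2.21, 1.14 to 4.63, counting error only). Its ratio was 1.00 in endothelial-like and 0.757 in smooth muscle-like cells.

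The mural connexins were not called in this knockout. Gja4 in pericyte-like cells was at 291 and 312 CPM against 356 and 409 CPM, a log2 change of -0.29 (SE 0.134, edgeR adjusted p = 0.530), and in smooth muscle-like cells at 355 and 406 CPM against 449 and 430 CPM (-0.11, SE 0.0634, edgeR adjusted p = 0.386). Both knockout libraries lay below both WT libraries in each class, opposite to small artery-like endothelium. Gjc1 was at 790 and 706 CPM against 923 and 857 CPM in pericyte-like cells (-0.20, SE 0.0992, edgeR adjusted p = 0.600) and at 463 and 480 CPM against 505 and 511 CPM in smooth muscle-like cells (-0.01, SE 0.0544). Ependymal-like cells were not tested, because the knockout libraries held 38 and 45 of them, below the minimum of 50. Their Gja1 was at 467 and 570 CPM against 689 and 704 CPM, a ratio of 0.757 (0.675 to 0.849, counting error only).

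The WT groups of the 2 experiments differed for most endothelial connexins, and each knockout was therefore set against its own WT only. In endothelial-like cells 5 of 6 members were called between Lama5 WT and Lama4 WT, where 55.3% of 13283 genes were. Gja1 was higher in Lama5 WT, at 115 and 108 CPM against 72.6 and 74.6 CPM (log2 difference 0.71, SE 0.0397, edgeR adjusted p = 3.72e-09). Gja5 was lower, at 4.75 and 3.69 CPM against 5.75 and 7.76 CPM (-0.55, SE 0.175, edgeR adjusted p = 0.0159), and Gja4 was not called (-0.14, SE 0.0680, edgeR adjusted p = 0.107). Gjb6 (1.04), Gjc3 (1.10) and Gjc1 (0.08, edgeR adjusted p = 0.0490) were higher in Lama5 WT. DESeq2 did not call Gja5 (adjusted p = 0.0830) or Gjc1 (0.249), and in edgeR both were lost without replicate 2 of Lama4 WT (0.123 and 0.254) or without replicate 2 of Lama5 WT (0.150 and 0.307). Without replicate 1 of Lama5 WT, edgeR lost Gjb6 (adjusted p = 0.0619) and Gjc1 (0.0770), and without replicate 1 of Lama4 WT it also called Gja4 (0.00267). Gjc1 was not called with RLE scaling (edgeR adjusted p = 0.0522) or without the filter on low counts (0.128). In the same endothelial-like cells astrocyte markers summed to 141 and 146 CPM against 200 and 207 CPM, and oligodendrocyte markers to 1376 and 1387 CPM against 1043 and 1078 CPM. Experiment, pool and mice cannot be told apart in this comparison.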

How the data were processed

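Single-cell libraries were made with the Chromium 3' kit v3, per the labels' protocols. The authors deposited UMI counts per gene and cell, written by Cell Ranger 3.1.0 per the file headers; mm10 and Seurat 3.1 are named in the submitters' processing notes. Cells with at least 500 genes and at most 15% mitochondrial UMIs were kept, and likely doublets were removed at 0.8% per 1000 cells. Clusters used 2000 variable genes without connexins, 30 components, 15 neighbours and resolution 1 (Python 3.11.15, scikit-learn 1.9.0, igraph 0.11.9). Endothelial zones came from sub-clusters on zone markers alone, a choice made after seeing the markers of sub-clusters on variable genes. Counts were summed per library and class and tested with edgeR 4.0.16 in R 4.3.3 (quasi-likelihood test, TMM, filterByExpr, Benjamini-Hochberg adjustment over all genes, threshold 0.05) where each library had at least 50 cells; levels needed 20 cells. Fitted changes use TMM scaling, so they differ from the ratio of the CPM printed beside them wherever the scaling factors of the groups differ. For Lama4-/-, genes with at least 30 counts were read at 1.5-fold, with 95% exact intervals for counting error only. All 7 members were named in the classes where they were detected. The members and lists were chosen with earlier results of these data known. Alternatives were RLE, DESeq2 1.42.0, no filter, a replicate block, resolution 2, a stricter cell filter (1000 genes, 10% mitochondrial), zones by marker score and leaving out each replicate. Simulated counts were used to check the edgeR steps for the endothelial-like Tek-Cre:Lama5-/- comparison only. Results for a few genes outside the 7 members are not reported here.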

Additional observations from a re-analysis of the deposited data

Results flagged for a closer look

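In the Tek-Cre:Lama5-/- comparison the log2 ratio of Gja4 was positive in endothelial-like cells (0.12) and in small artery-like cells (0.15) and negative in pericyte-like (-0.34) and smooth muscle-like cells (-0.21), with every knockout library on the same side of its WT libraries' mean within each class. The difference between endothelial-like and pericyte-like cells was 0.46, and between endothelial-like and smooth muscle-like cells 0.32. Pericyte-like minus small artery-like cells gave -0.49, and small artery-like minus smooth muscle-like cells 0.36. These differences were not tested.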

How the results depend on the processing

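No tested result reversed its direction under the alternatives run. Of 6 endothelial-like tests in Tek-Cre:Lama5-/-, 2 members were called, 0 under DESeq2 and 0 to 2 when 1 replicate was left out. Of 14 tests in other classes 3 were called, 1 at clustering resolution 2, 1 under the stricter cell filter, and 3 to 4 when 1 replicate was left out. Of 12 zone tests 1 was called, 0 under DESeq2, 0 without the filter on low counts, 0 with zones by marker score, and 0 to 1 when 1 replicate was left out. At resolution 2 and under the stricter filter the 1 zone call was Gja4 in large artery-like cells, higher by 0.38 and 0.34 on the log2 scale. That zone then held 175 to 235 and 142 to 195 cells per library of this comparison. The main large artery-like zone held 24 to 33 and gave an untested ratio of 0.986. Between the WT groups 5 members were called, 3 under DESeq2 and 3 to 6 when 1 replicate was left out. In Lama4-/- 4 differences passed the fold in endothelial-like cells and the 2 arterial zones, and 3 to 5 when 1 WT replicate was left out. The causes were not tested. With the replicate number as a block, 3 members were called in endothelial-like cells and 3 in other classes. The same block gave 1 call in zones and 5 between the WT groups. Over genes, the deviations of same-numbered libraries had a correlation of -0.0206 for Lama5 KO and WT and -0.0365 for the WT groups. With 2 libraries per group this does not show whether same-numbered libraries were handled together. Among values of single genes, 227 were the same, 25 moved, 27 lost and 6 gained their call. Depth limits large artery-like and fibroblast-like cells, with 24 to 39 and 11 to 47 cells per library.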

Other observations

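Gjd4, a connexin outside the 7 members, differed between the WT groups in endothelial-like cells, at 1.43 and 1.87 CPM (31 and 39 counts) in Lama5 WT against 0.0496 and 0.0554 CPM (1 count each) in Lama4 WT (edgeR adjusted p = 3.37e-06). The fitted log2 difference of 4.92 depends on the prior count at so few reads. It was chosen after its values were seen. Of the 33 clusters, 3 with 712 cells carried no name. The one with both endothelial and mural genes, 204 cells, held Gja4 at 267 CPM, Gjc1 at 307 CPM, Gja1 at 79.6 CPM and Gja5 at 21.1 CPM.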
